A study of Mus musculus with 12 samples.

Results

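Genes of the immunoproteasome and of MHC class I antigen presentation were followed through 6 days of 2i in mouse embryonic stem cells, with and without an inhibitor of the nuclease MRE11. The 10 genes were named by function and not by their values: Psmb8, Psmb9, Psmb10, Tap1, Tap2, Tapbp, B2m, H2-K1, H2-D1 and Nlrc5, of 56691 mouse gene IDs in the count tables. Cells were R1, a male embryonic stem cell line of the 129/Sv strain grown on gelatin without a feeder layer named in the labels. The 4 groups, with 3 libraries each, were 2i for 6 days, 2i with 25 µM MRE11 inhibitor for 6 days, 2i with 50 µM MRE11 inhibitor for 6 days, and cells in serum with LIF at day 0, which the labels call primed. 2i combines an inhibitor of MEK with an inhibitor of GSK3, and no name is given for the MRE11 inhibitor in the sources used here. The primed name is used here only for the day 0 group. No group stayed in serum with LIF until day 6, so 2i, days in culture and any change of medium cannot be told apart. Whether replicates were grown as separate cultures is not stated, so the tests measure a spread that may be technical.

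Proteins are cut into peptides by the proteasome, and part of these peptides are shown at the cell surface by MHC class I molecules. The immunoproteasome is a form of the 20S core in which Psmb8, Psmb9 and Psmb10 take the places of the constitutive catalytic subunits Psmb5, Psmb6 and Psmb7. Tap1 and Tap2 form the transporter that carries peptides into the endoplasmic reticulum, Tapbp (tapasin) ties that transporter to empty class I molecules, and each class I molecule pairs a heavy chain, such as H2-K1 or H2-D1, with the light chain B2m. Nlrc5 is a transactivator of class I promoters. Interferon induces most of these genes in differentiated cells, and embryonic stem cells are known for low surface class I.

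Libraries held 5894561 to 7060126 counts, made by oligo-dT primed 3′ mRNA sequencing, so that a gene's count does not scale with its length. Levels are CPM (counts scaled to the TMM-adjusted library total), changes are log2 fold changes ± SE, and a gene was called where its Benjamini-Hochberg adjusted p in edgeR's quasi-likelihood test was below 0.05 over 13230 genes. 8 pluripotency genes fixed as markers summed to 4400 to 4640 CPM in 2i and 3970 to 4630 CPM in primed libraries. Of these 8, 2 were higher, 2 lower and 4 not called in 2i, so the sums hide opposite changes. The called share was 50%, beside 40.4% of all genes tested. Of the 10 genes, 9 passed the low-count filter and Nlrc5 did not. Psmb8 and Tap2 passed through the primed libraries alone, so a call was built into their selection, and counts over the 9 genes do not summarise the 10.

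In 2i, 8 of these 9 genes were lower and B2m was higher than in primed cells, in a comparison in which 40.4% of tested genes were called (20% higher and 20.4% lower). The median log2 fold change was −1.56 over the 9 genes and −0.01 over all genes tested. The count and the median include Psmb8 and Tap2, whose calls were built into their selection. In bulk libraries, fewer cells of a type and less RNA per cell cannot be told apart.

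**Figure D1:**
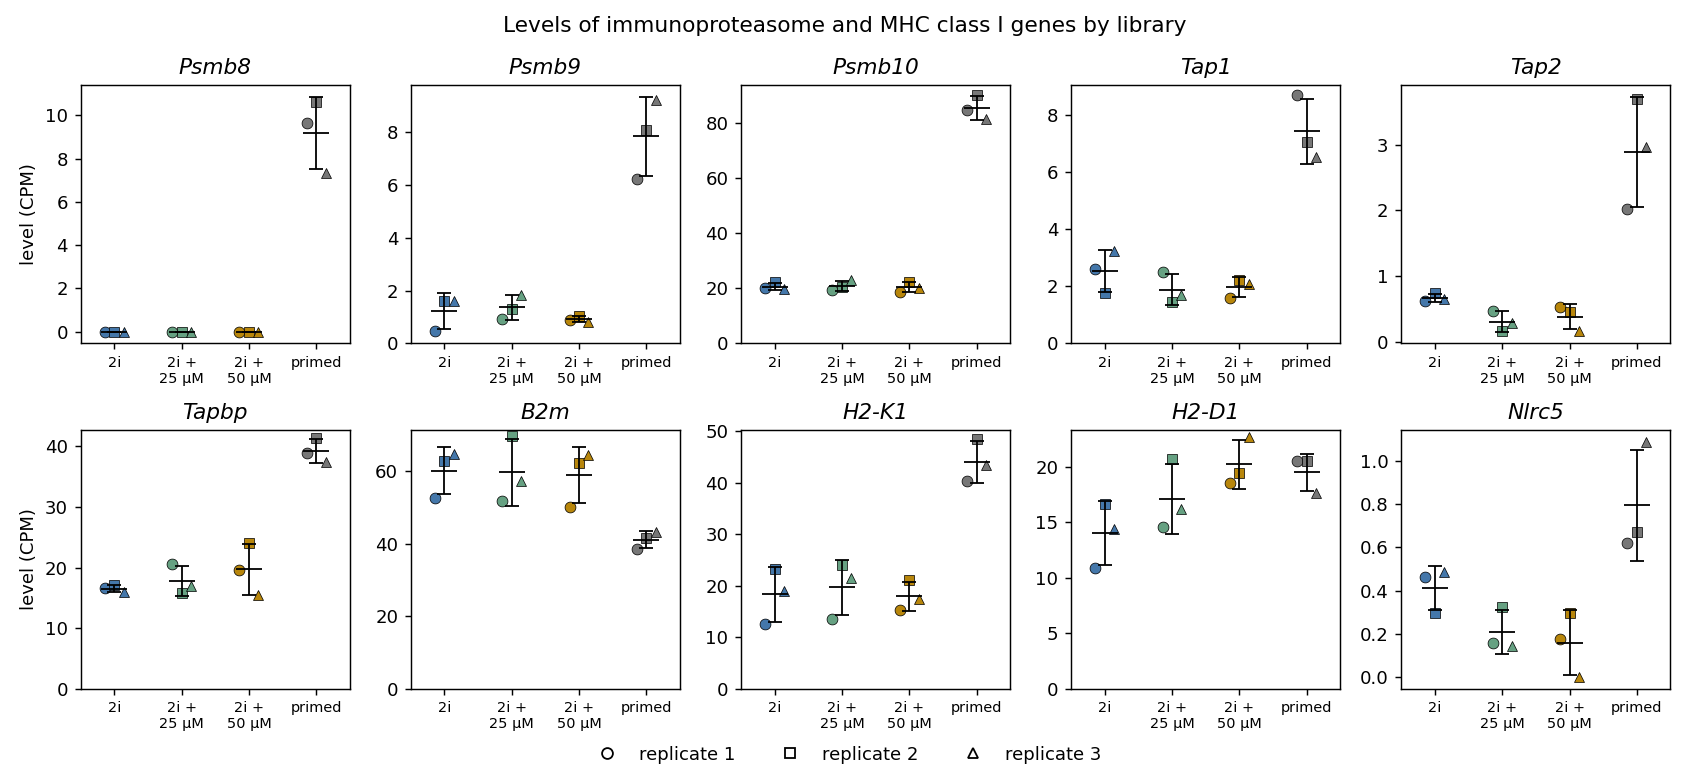
Levels of the 10 genes in CPM (vertical axes, 1 panel a gene) in each library of 2i, 2i with 25 µM, 2i with 50 µM and primed cells; symbols mark replicate numbers, horizontal lines the mean and error bars the SD of 3 libraries. Psmb8, Psmb9, Psmb10, Tap1, Tap2, Tapbp and H2-K1 have every six-day library below every primed one, and B2m has every six-day library above.

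The catalytic subunits of the immunoproteasome showed the widest range of levels. Psmb8, the subunit with chymotrypsin-like activity (ENSMUSG00000024338, GRCm38 chr17:34197721-34201454, plus strand), had 0 counts in all 3 libraries of 2i, of 25 µM and of 50 µM, against 62, 63 and 47 counts in primed libraries. Those primed counts correspond to 9.64, 10.6 and 7.32 CPM. At a floor of 3 counts over a group, Psmb8 was at least 59.5-fold lower in 2i than in primed cells. It was at least 59.7-fold lower at 25 µM and at least 56.6-fold lower at 50 µM. Psmb8 passed the filter through primed libraries alone, so these falls are a description and no p is given. The floor is 0.154 CPM in 2i, 0.153 CPM at 25 µM and 0.162 CPM at 50 µM and covers counting error only, so a level below it was not detectable at this depth.

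Psmb9, the subunit that replaces Psmb6 (ENSMUSG00000096727, chr17:34181987-34187764, minus strand), had 0.461, 1.62 and 1.61 CPM in 2i, 0.941, 1.3 and 1.85 CPM at 25 µM and 0.881, 1.04 and 0.809 CPM at 50 µM, against 6.22, 8.07 and 9.19 CPM in primed cells. The six-day groups overlapped one another and lay below all primed libraries, with the lowest value in 2i replicate 1. Psmb9 was 6.27-fold lower in 2i (−2.65 ± 0.35, edgeR adjusted p = 2.41e-06), on 24 counts in 2i and 147 in primed cells.

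Psmb10, the subunit that replaces Psmb7 (ENSMUSG00000031897, chr8:105935735-105938444, minus strand), was the most abundant and the tightest of the catalytic subunits. It had 20, 22.2 and 19.8 CPM in 2i, 19.4, 20.5 and 22.9 CPM at 25 µM and 18.7, 22.5 and 20.2 CPM at 50 µM, against 85, 90.4 and 81.6 CPM in primed cells. All 9 six-day libraries lay within a few CPM of each other and far below the primed ones. The fall in 2i was 4.14-fold (−2.05 ± 0.11, edgeR adjusted p = 3.09e-12).

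Set against the constitutive subunit of the same position, the immunosubunits made up smaller shares after 6 days in each pair. Psmb8 made up 0% of the summed counts of Psmb8 and Psmb5 in every six-day library, against 15.5%, 17.4% and 12.3% in primed libraries. Psmb10 made up 6.13 ± 0.408% of the counts of Psmb10 and Psmb7 in 2i, 6.43 ± 1.43% at 25 µM and 6.34 ± 0.673% at 50 µM, against 20.2 ± 0.269% in primed cells (SD, n = 3 each). The Psmb9 share of counts with Psmb6 was 0.27 ± 0.138% in 2i, 0.3 ± 0.0913% at 25 µM and 0.226 ± 0.044% at 50 µM, against 1.64 ± 0.32% in primed cells. No six-day share reached the lowest primed share in any pair. The shares compare 3′-end counts and are not shares of protein.

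**Figure D2:**
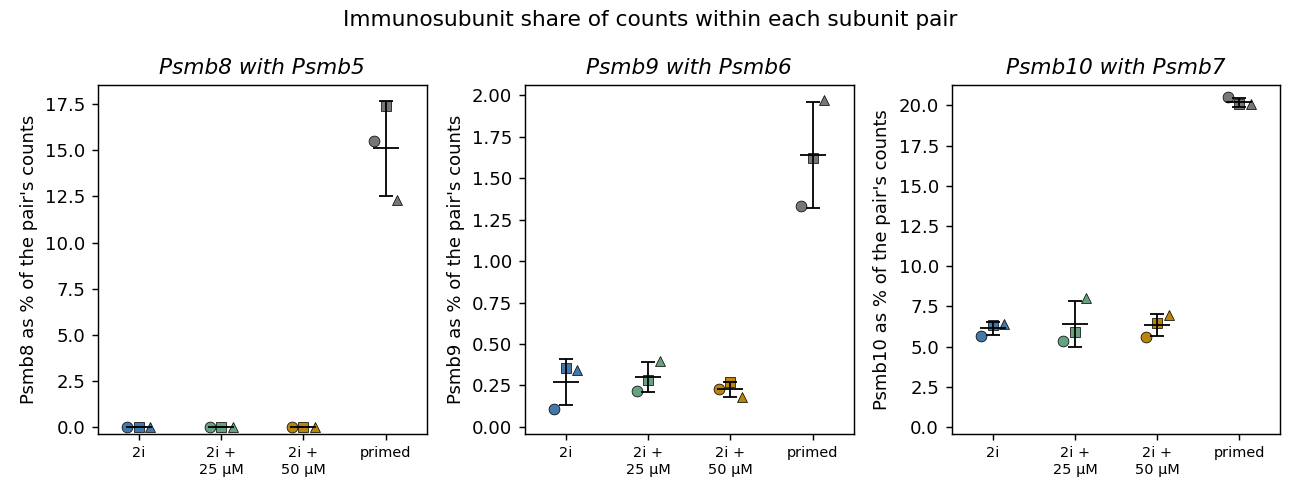
Share of each immunosubunit (vertical axes, % of the counts of the pair) with its constitutive counterpart in each library of 2i, 2i with 25 µM, 2i with 50 µM and primed cells; symbols mark replicates, lines the mean and error bars the SD of 3 libraries. Psmb10 makes up 20.1% to 20.5% of its pair in primed libraries and at most 8.05% in six-day libraries.

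The constitutive partners themselves were not called in 2i. Psmb5 had 45.1, 47 and 42.9 CPM in 2i, against 52.4, 50.4 and 52.2 CPM in primed cells (−0.20 ± 0.13, edgeR adjusted p = 0.241). Psmb6 changed by −0.07 ± 0.08 and Psmb7 by −0.09 ± 0.10. Of 14 constitutive 20S subunits, 0 were higher, 2 lower (Psma7 and Psma5) and 12 not called, with a median of −0.11. The called share was 14.3%, beside 40.4% of all genes tested. The call of Psma5 was lost without primed replicate 3 (edgeR adjusted p = 0.0844) or 2i replicate 3 (0.16). The fit with replicate number as a block called 5 lower. Of 18 subunits of the 19S cap, 1 (Psmc3) was higher and 17 were not called, a called share of 5.56%, with a median of −0.02. The call of Psmc3 was lost without primed replicate 2 or 3 or 2i replicate 1 or 3, with edgeR adjusted p between 0.0782 and 0.175. The block fit called 4 higher and 2 lower. The difference in change between the immunosubunits and the other subunits was not tested.

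Among 10 activators and assembly factors of the proteasome, 1 was higher, 6 were lower and 3 were not called in 2i. The called share was 70%, beside 40.4% of all genes tested. Psme1 and Psme2 encode the subunits of the PA28 cap that associates with the immunoproteasome. Psme2 had 50.1, 45.8 and 50.8 CPM in 2i, against 88, 98 and 105 CPM in primed cells (−0.99 ± 0.12, edgeR adjusted p = 5.64e-07). Psme1 changed less, by −0.44 ± 0.11 (adjusted p = 0.00324). Psmg3 and Psmg2, chaperones of 20S assembly, changed by −1.02 ± 0.11 and −0.50 ± 0.10, and Psme4, the single-chain activator PA200, rose by 0.70 ± 0.10.

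The genes that carry peptides to class I molecules fell too. Tap1 (ENSMUSG00000037321, chr17:34187553-34197225, plus strand) had 2.61, 1.77 and 3.23 CPM in 2i, 2.51, 1.46 and 1.7 CPM at 25 µM and 1.59, 2.24 and 2.1 CPM at 50 µM, against 8.7, 7.06 and 6.54 CPM in primed cells. Every six-day value was below every primed value, and the six-day groups overlapped. Tap1 was 2.94-fold lower in 2i (−1.55 ± 0.28, edgeR adjusted p = 0.000102).

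Tap2, the other chain of the transporter (ENSMUSG00000024339, chr17:34203527-34216321, plus strand), was close to the limit of detection after 6 days. It had 4, 5 and 4 counts in 2i, 3, 1 and 2 counts at 25 µM and 3, 3 and 1 counts at 50 µM, against 13, 22 and 19 counts in primed libraries. On these counts Tap2 was 4.23-fold lower in 2i (−2.08 ± 0.44). Tap2 passed the filter through primed libraries alone, so this fall is a description and no p is given.

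Tapbp, the tapasin gene (ENSMUSG00000024308, chr17:33915899-33929292, plus strand), had 16.6, 17.1 and 16 CPM in 2i, 20.5, 15.8 and 17 CPM at 25 µM and 19.6, 24 and 15.5 CPM at 50 µM, against 38.9, 41.4 and 37.4 CPM in primed cells. The six-day libraries again formed one range below the primed libraries. Its fall was 2.37-fold in 2i (−1.24 ± 0.14, edgeR adjusted p = 4.16e-07). Tapbp is annotated as overlapping Zbtb22 on the same strand over 3422 bases and the antisense gene Gm19412. These overlaps end by chr17:33920485, away from the annotated 3′ end of Tapbp at 33929292, near which this kit collects reads. How reads in the overlaps were assigned is not stated, so some uncertainty in the level of Tapbp remains.

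Tap1 and Psmb9 are neighbours in opposite directions and overlap by 212 bases at their GENCODE starts, which is away from the 3′ ends where this kit collects reads. The RefSeq promoter windows of the pair (250 bases before to 50 after an annotated start, GRCm38.p6) share 275 bases. The Tap1 window is shown since the RefSeq starts of both falling genes lie inside it; the GENCODE start of Psmb9 given above lies outside. Capitals mark 1 CCAAT box (CCAAT) and 1 core of a CRE site (TGACG), searched on both strands.
Tap1, chr17:34187306-34187605, plus strand: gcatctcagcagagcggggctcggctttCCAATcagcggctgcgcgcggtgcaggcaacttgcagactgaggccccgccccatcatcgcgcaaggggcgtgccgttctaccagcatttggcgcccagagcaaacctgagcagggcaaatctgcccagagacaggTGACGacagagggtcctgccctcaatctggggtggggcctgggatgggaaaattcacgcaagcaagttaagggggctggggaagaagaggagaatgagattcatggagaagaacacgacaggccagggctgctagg
In the same search, 37.4% of 32851 promoter windows held CCAAT and 20.8% held TGACG. A match describes letters and does not show a bound site.

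Genes that edit and load peptides beside the transporter moved in both directions. Of 11 tested, 4 were higher, 3 lower and 4 not called in 2i, with a median of 0.11. Some of the higher calls were lost when 1 library was left out, with edgeR adjusted p between 0.0516 and 0.0829. The called share was 63.6%, beside 40.4% of all genes tested. Erap1 encodes the aminopeptidase that trims peptides in the endoplasmic reticulum. It had 0.768, 0.295 and 0.807 CPM in 2i, against 3.42, 5.21 and 5.3 CPM in primed cells (−2.87 ± 0.53). Whether Erap1 passed the filter through primed libraries alone is not given here, so this fall is a description and no p is given. Tapbpl, a tapasin-related peptide editor, changed by −1.47 ± 0.30. Lnpep, an aminopeptidase of endosomes, rose by 0.92 ± 0.14, and the chaperone Calr rose by 0.42 ± 0.09.

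The chains of the class I molecule itself did not share a direction. B2m, the light chain (ENSMUSG00000060802, chr2:122147686-122153083, plus strand), had 52.7, 62.7 and 64.8 CPM in 2i, 51.9, 69.8 and 57.4 CPM at 25 µM and 50, 62.3 and 64.6 CPM at 50 µM, against 38.5, 41.7 and 43.2 CPM in primed cells. It was the 1 gene of the 9 that rose, 1.46-fold in 2i (0.55 ± 0.13, edgeR adjusted p = 0.00123), and every six-day library was above every primed one. B2m lies inside the span of Patl2, a gene on the other strand with 410 counts over the 12 libraries that was not called in 2i (−0.05), and whether counting used strand was not stated, so its level is uncertain.

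H2-K1, a classical heavy chain (ENSMUSG00000061232, chr17:33996017-34000347, minus strand), had 12.6, 23.3 and 19 CPM in 2i, 13.6, 23.9 and 21.4 CPM at 25 µM and 15.3, 21 and 17.3 CPM at 50 µM, against 40.3, 48.4 and 43.5 CPM in primed cells. Six-day values spread widely but stayed below all primed values. H2-K1 was 2.4-fold lower in 2i (−1.26 ± 0.20, edgeR adjusted p = 7.22e-05).

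H2-D1, the other classical heavy chain (ENSMUSG00000073411, chr17:35262730-35267499, plus strand), had 10.9, 16.6 and 14.4 CPM in 2i, 14.6, 20.7 and 16.2 CPM at 25 µM and 18.5, 19.4 and 22.7 CPM at 50 µM, against 20.5, 20.5 and 17.6 CPM in primed cells. The 2i libraries lay below all primed libraries, while those at 25 and 50 µM overlapped them. In 2i it was 1.4-fold lower (−0.48 ± 0.17, edgeR adjusted p = 0.0258). That call was lost without primed replicate 1 (adjusted p = 0.0685), primed replicate 2 (0.075), 2i replicate 1 (0.164) or 2i replicate 3 (0.0515). H2-K1 and H2-D1 resemble other class I genes closely, so reads may be split among copies and both levels are uncertain.

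The promoters of B2m, H2-K1 and H2-D1 are set side by side because they hold the same 4 motifs while the genes differ in direction. Each 300-base RefSeq window (GRCm38.p6, an assembly of C57BL/6J and not of the 129 strain of these cells) holds an IRF core (AANNGAAA), a kappaB-type motif (GGGNNTTNC), a CRE core (TGACG) and a CCAAT box (CCAAT), all in capitals and read on either strand.
B2m, chr2:122147437-122147736, plus strand: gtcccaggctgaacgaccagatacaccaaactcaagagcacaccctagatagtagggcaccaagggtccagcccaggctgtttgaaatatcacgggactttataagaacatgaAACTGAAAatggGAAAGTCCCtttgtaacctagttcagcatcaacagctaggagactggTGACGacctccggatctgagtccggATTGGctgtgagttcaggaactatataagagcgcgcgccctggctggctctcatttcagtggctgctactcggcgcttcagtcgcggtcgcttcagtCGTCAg
H2-K1, chr17:34000284-34000583, minus strand: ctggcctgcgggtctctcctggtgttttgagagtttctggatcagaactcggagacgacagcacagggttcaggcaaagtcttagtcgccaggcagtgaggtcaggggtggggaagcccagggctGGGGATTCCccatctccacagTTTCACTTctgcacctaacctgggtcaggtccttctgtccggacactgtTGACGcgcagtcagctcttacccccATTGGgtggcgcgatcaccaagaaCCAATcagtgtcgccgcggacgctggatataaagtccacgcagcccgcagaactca
H2-D1, chr17:35262844-35263143, plus strand: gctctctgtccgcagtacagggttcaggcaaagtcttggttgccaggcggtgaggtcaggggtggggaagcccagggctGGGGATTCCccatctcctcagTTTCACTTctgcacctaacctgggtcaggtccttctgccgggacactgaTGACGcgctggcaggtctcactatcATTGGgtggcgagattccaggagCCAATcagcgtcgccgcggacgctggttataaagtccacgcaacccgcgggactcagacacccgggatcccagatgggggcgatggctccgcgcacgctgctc
From the annotated start, the kappaB-type motif begins at −125 in B2m, −125 in H2-K1 and −171 in H2-D1, and the IRF core at −137 in B2m, −104 in H2-K1 and −150 in H2-D1. RefSeq holds another start for H2-K1, from which these motifs begin at −111 and −90, so the offsets depend on the start chosen. The order differs, with the IRF core upstream of the kappaB-type motif in B2m and downstream of it in both heavy chains. In the same search, the windows of Psmb8, Psmb9, Psmb10, Tap1 and Tapbp held 0 IRF cores and 0 kappaB-type motifs. Of all 32851 windows, 23.9% held AANNGAAA and 15.2% held GGGNNTTNC. The letters searched were settled after these windows had been read, and RefSeq windows were found for 8 of the 10 genes, not for Tap2 and Nlrc5.

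In B2m, H2-K1 and H2-D1, replicate 1 was the lowest library of each of the 3 six-day groups. For H2-K1, replicate 1 had 12.6 CPM in 2i, 13.6 CPM at 25 µM and 15.3 CPM at 50 µM, below the other 6 six-day libraries. In primed cells replicate 1 was also the lowest for B2m and H2-K1, but not for H2-D1. Psmb10, Tap1 and Tapbp showed no such order of replicate numbers.

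Nlrc5, the class I transactivator (ENSMUSG00000074151, chr8:94434356-94527272, plus strand), had 3, 2 and 3 counts in 2i, 1, 2 and 1 at 25 µM and 1, 2 and 0 at 50 µM, against 4, 4 and 7 in primed libraries. The counts were too few for the fit. Scaled for library size, the ratio of summed counts to those of primed cells was 0.514 in 2i (exact 95% interval 0.189 to 1.29), 0.256 at 25 µM (0.0619 to 0.804) and 0.203 at 50 µM (0.0376 to 0.716), with intervals that cover counting error only. The interval for 2i holds both no change and a fall as large as that of Psmb10.

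Other class I genes were mostly at the edge of detection: 7 of 23 passed the filter. Of these, 3 were higher, 2 lower and 2 not called in 2i, a called share of 71.4% beside 40.4% of all genes tested. Which of the 7 passed through primed libraries alone is not given here. The refits without primed replicate 2, 2i replicate 2 or 2i replicate 3 tested 8, 9 and 9 genes of the list. Each called 1 higher and 3 lower. H2-M5 rose by 1.01 ± 0.20 and had 24.6, 16.1 and 16.1 CPM in 2i, against 11.7, 9.41 and 7.01 CPM in primed cells. H2-Q4 changed by −2.70 ± 0.66 on 7 counts in 2i and 46 in primed libraries, and H2-M3 by −1.96 ± 0.56. H2-T23, which presents leader peptides of other class I chains to natural killer cells, had 2, 6 and 2 counts in 2i, against 3, 2 and 9 counts in primed libraries, and was not tested.

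The second question was whether the MRE11 inhibitor changed the response to 2i. At 25 µM against 2i, 0 of the 8 genes with counts in either group were called, in a comparison in which 0.937% of tested genes were called (0.454% higher and 0.484% lower). The count was also 0 at an unadjusted p below 0.05, by DESeq2 and by limma voom. Psmb10 changed by 0.02 ± 0.12 (95% interval −0.23 to 0.27), B2m by −0.01 ± 0.12 (−0.26 to 0.24) and Tapbp by 0.10 ± 0.15 (−0.22 to 0.42). The interval was wide for Tap2, from −2.45 to 0.30, so changes of several fold in this gene were not detectable.

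At 50 µM against 2i, 15.1% of tested genes were called (7.01% higher and 8.07% lower), and 1 of the 8 genes, H2-D1, was called higher. H2-D1 stood at 18.5, 19.4 and 22.7 CPM at 50 µM, against 10.9, 16.6 and 14.4 CPM in 2i, with no overlap, a 1.44-fold difference (0.53 ± 0.17, edgeR adjusted p = 0.0368). The call was lost with DESeq2 (adjusted p = 0.0574) and without 2i replicate 1 (0.199), 2i replicate 3 (0.076), 50 µM replicate 1 (0.0585), 50 µM replicate 2 (0.0588) or 50 µM replicate 3 (0.175). At 25 µM, between those groups, H2-D1 differed from 2i by 0.29 ± 0.17 (edgeR adjusted p = 0.485), and 50 µM differed from 25 µM by 0.24 ± 0.16 (0.624).

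The other genes were not called at 50 µM. H2-K1 changed by −0.03 ± 0.22 (95% interval −0.49 to 0.43), Psmb10 by −0.01 ± 0.12 (−0.27 to 0.24) and B2m by −0.02 ± 0.12 (−0.28 to 0.23). Tapbp had the next smallest p, with 0.25 ± 0.15 (−0.06 to 0.57, edgeR adjusted p = 0.28). Psmb9 changed by −0.42 ± 0.49, Tap1 by −0.34 ± 0.34 and Tap2 by −0.79 ± 0.64, each on few counts. At 50 µM against 25 µM, 0 of the 8 genes were called, also 0 at an unadjusted p below 0.05, by DESeq2 and by limma voom, where 1.16% of tested genes were called (0.181% higher and 0.975% lower).

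**Figure D3:**
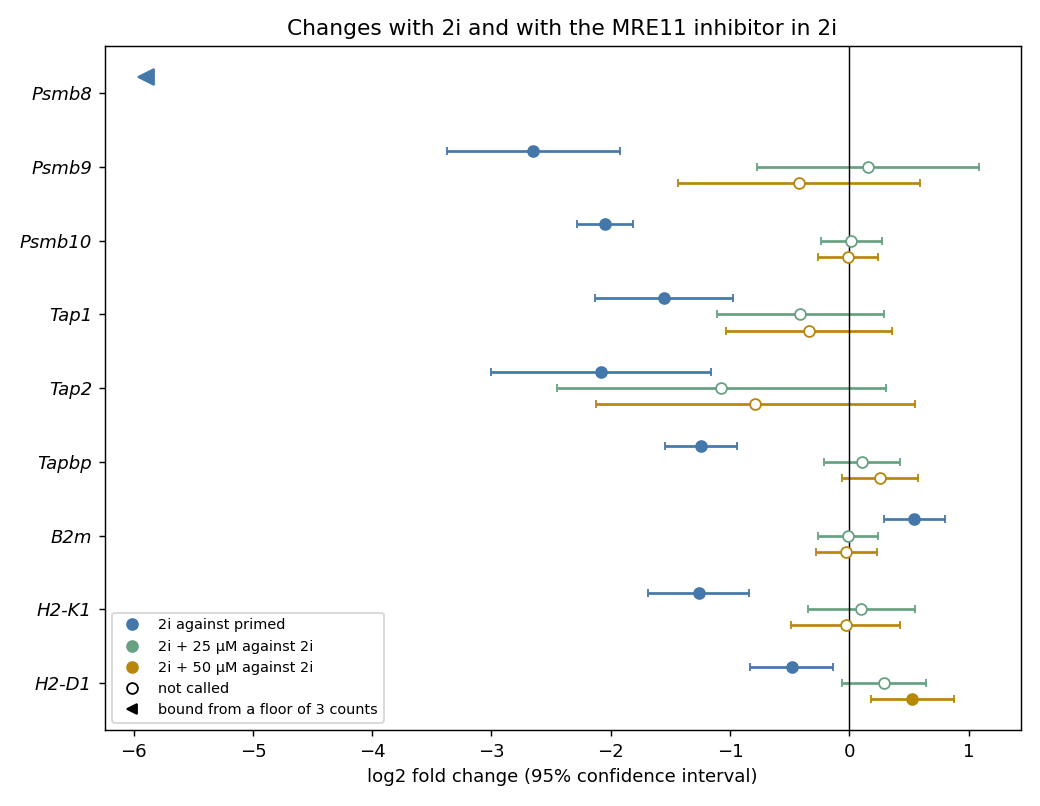
Log2 fold changes (horizontal axis) with 95% confidence intervals for 9 genes, for 2i against primed, 25 µM against 2i and 50 µM against 2i; filled points were called, open points were not, and the triangle is the bound for Psmb8 from a floor of 3 counts. Points for 2i against primed lie between −2.65 and 0.55 beside the Psmb8 bound, and H2-D1 at 0.53 is the filled point among the inhibitor comparisons.

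Each inhibitor group was also set against primed cells, in comparisons that share the primed libraries with each other and with 2i against primed. At 25 µM, 1 gene was higher and 7 lower of 9, where 42.3% of tested genes were called (21.3% higher and 21% lower). At 50 µM, 1 was higher and 7 lower, where 44.3% were called (22.6% higher and 21.7% lower). The 7 lower genes at each dose include Psmb8 and Tap2, whose calls were built into their selection. The gene not called was H2-D1, with −0.19 ± 0.16 at 25 µM (edgeR adjusted p = 0.379) and 0.05 ± 0.16 at 50 µM (0.833). B2m was 1.45-fold higher at 25 µM and 1.44-fold higher at 50 µM, beside 1.46-fold in 2i. Psmb10 was 4.08-fold lower at 25 µM and 4.17-fold lower at 50 µM, beside 4.14-fold in 2i. Tap2 changed by −3.15 ± 0.51 at 25 µM and by −2.87 ± 0.50 at 50 µM, beside −2.08 ± 0.44 in 2i.

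Regulators and other targets of interferon were described beside these genes. Irf1, a transcription factor that binds promoters of immunoproteasome and Tap genes, had 29.2, 26.4 and 35 CPM in 2i, 27.9, 27.7 and 30.5 CPM at 25 µM and 30.1, 28.9 and 29.1 CPM at 50 µM, against 97.8, 104 and 89.3 CPM in primed cells. Its six-day groups overlapped and lay below all primed libraries, and the fall in 2i was 3.22-fold (−1.69 ± 0.11, edgeR adjusted p = 5.94e-11). Of 15 interferon signalling genes tested, 3 were higher, 3 lower and 9 not called in 2i. The called share was 40%, near the 40.4% of all genes tested. Socs1 and Socs3, feedback inhibitors of cytokine signalling, changed by −1.27 ± 0.25 and −0.52 ± 0.11, and the kinase Jak1 rose by 0.50 ± 0.10.

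Of 24 interferon-stimulated genes tested, out of 35 listed, 4 were higher, 13 lower and 7 not called in 2i, with a median of −0.85. The called share was 70.8%, beside 40.4% of all genes tested. Which of the 24 passed the filter through primed libraries alone is not given here. Some of the falls could thus be built into their selection, and the count and median do not summarise the 35. Gbp2, a guanylate-binding GTPase, had 1, 0 and 0 counts in 2i, against 113, 82 and 93 counts in primed libraries. Gbp3 of the same family had 0, 2 and 0 counts in 2i, against 37, 36 and 38 in primed libraries. Ddx58, the RNA sensor RIG-I, changed by −1.89 ± 0.16, and Xaf1, an apoptosis factor, rose by 1.56 ± 0.16. At 50 µM against 2i, 1 of the 24 was higher (Ddx58, 0.77 ± 0.17) and 3 lower, among them the GTPase Igtp (−2.19 ± 0.53). The called share was 16.7%, near the 15.1% of all genes tested. With replicate number as a block, 5 were lower.

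**Figure D4:**
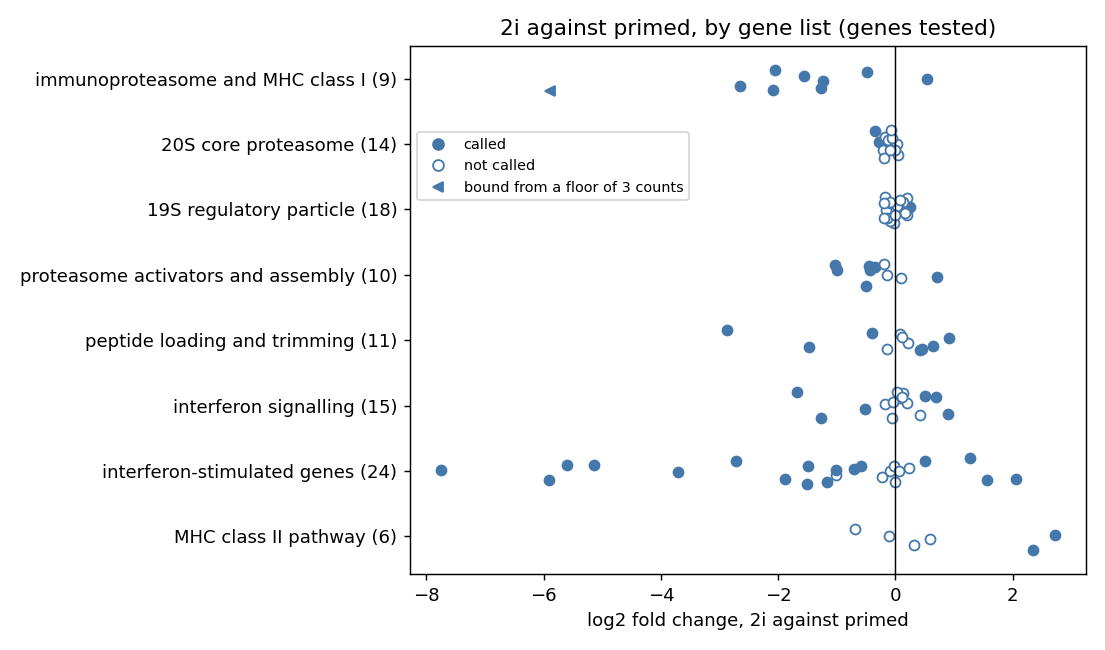
Log2 fold changes in 2i against primed (horizontal axis) of the genes tested in each list (rows, with their number); filled points were called, open points were not, and the triangle is the bound for Psmb8. The 20S and 19S rows cluster near 0, and the fitted values of interferon-stimulated genes with 3 or fewer counts in 2i, such as Gbp2, depend on the prior count.

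Factors that bind class I promoters were counted in the same way. Of 14, 2 were higher, 2 lower and 10 not called in 2i, a called share of 28.6% beside 40.4% of all genes tested. The block fit called 2 higher and 4 lower. Relb, an NF-kappaB subunit, rose by 0.91 ± 0.15, and Nfkb1, another, changed by −0.97 ± 0.18. Rfx5, a subunit of the RFX complex that recruits Nlrc5, rose by 0.55 ± 0.19 (edgeR adjusted p = 0.0231), a call lost without primed replicate 2 (0.105) or 2i replicate 3 (0.107). At 50 µM against 2i, Relb changed by −0.65 ± 0.14 (edgeR adjusted p = 0.004).

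Over the 12 libraries, each gene was set against the mean standardised log2 CPM of the other genes of the 9. Pearson's r was 0.966 for Psmb10, 0.953 for Psmb8, 0.95 for Psmb9 and H2-K1, 0.895 for Tapbp, 0.834 for Tap1 and 0.832 for Tap2. It was 0.359 for H2-D1 and −0.783 for B2m. The non-member genes most like the mean of all 9 were Pla2g10, a secreted phospholipase (r = 0.992), Nup85, a nuclear pore protein (0.982), Rap1gds1 (0.982), Grb7, a signalling adaptor (0.981), Pou3f1, a transcription factor of the epiblast (0.979), and Slc37a1 (0.978). These values rest on 4 groups, mainly on primed against the rest, and serve as a description. Pla2g10 had 7.37, 11.9 and 10.5 CPM in 2i, against 40.3, 48.6 and 47.7 CPM in primed cells.

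Markers of other cells moved between the same groups. The 10 fibroblast markers summed to 12.9 to 17.8 CPM in 2i, 6.74 to 7.81 CPM at 25 µM and 1.94 to 4.53 CPM at 50 µM, against 32.6 to 74.9 CPM in primed libraries. Of the 4 tested in 2i, 3 were lower, a called share of 75% beside 40.4% of all genes tested. Which of the 4 passed the filter through primed libraries alone is not given here. Falls among them could thus be built into their selection, and the count does not summarise the 10. Dcn, Lum and Postn had 0 counts in all primed libraries. Col1a1 had 41.3, 16.8 and 18.2 CPM in primed libraries. The primed library richest in it, replicate 1, was the lowest of the 3 for Psmb9, Tap2, B2m and H2-K1 and the highest for Tap1. That library lay in the middle for Psmb8, Psmb10 and Tapbp, and for H2-D1 it had 20.5 CPM, as did replicate 2, above replicate 3. The 7 trophoblast markers summed to 127 to 177 CPM in 2i, 117 to 149 CPM at 25 µM and 83.2 to 115 CPM at 50 µM, against 248 to 431 CPM in primed libraries. The 11 immune markers summed to 27 to 35.9 CPM in 2i, 22.6 to 26.3 CPM at 25 µM and 12.5 to 21.3 CPM at 50 µM, against 8.39 to 11.4 CPM in primed libraries. H2-Eb1 alone had 21.5 to 27.5 CPM in 2i. Of the 11, 2 had 0 counts in 2i. Ptprc had 1 count and Tyrobp 0 in the 12 libraries. The part of such cells in the falls of the immunoproteasome and class I genes was not tested.

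Mre11a, which encodes the target of the inhibitor, changed by −0.39 ± 0.10 in 2i against primed (edgeR adjusted p = 0.00431) and was not called at 25 µM (0.11 ± 0.10) or 50 µM (0.14 ± 0.10) against 2i. RNA of the target does not measure its inhibition.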

How the data were processed

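Libraries were made from total RNA with a QuantSeq 3′ mRNA-seq kit (oligo-dT priming), per the labels' protocols. The authors deposited raw counts per gene in 1 table a library; the submitters' processing notes name FastQC, STAR, DESeq2 1.32.0 and the build GRCm38. Counting tool, annotation release and strand setting were not stated in the sources used here. Of 56805 features, 114 spike-in features (2 counts in all) were left out. A series table with the same values in its 12 columns was not used, and 0 columns were left unmapped. Gene positions and overlaps come from GENCODE M21, and 52073 IDs had a symbol.

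Groups and replicate numbers follow the labels. Counts of replicates differed by a chi-square per degree of freedom of 2.63 to 13, and none was taken for a duplicate. All 12 libraries, of 5894561 to 7060126 counts, entered 1 edgeR 4.0.16 quasi-likelihood fit in R 4.3.3 (TMM factors 0.943 to 1.037, filterByExpr, robust), with Benjamini-Hochberg adjustment over 13230 genes; the script was tested on simulated data. Log2 CPM used a prior count of 2. A fold against a group at 0 used a floor of 3 counts over the group. Alternatives were RLE scaling, no filter, DESeq2 1.42.0, limma 3.58.1 voom, a fit of the 2 groups compared, a replicate block and leaving out each library. No label explains the replicate numbers, but same-numbered libraries deviated together in the comparisons among six-day groups (r = 0.155 to 0.314 for 25 µM with 2i, 0.115 to 0.249 for 50 µM with 2i, 0.134 to 0.286 for 50 with 25 µM), with every pair over 0.1. Beside the 10 genes, up to 4 called genes of each context list with the smallest p in 2i (2 in each inhibitor comparison), a fixed set of anchors, and the 6 genes most alike were named; not every anchor is reported here. The genes and lists were chosen with earlier results of these data known.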

Additional observations from a re-analysis of the deposited data

How the results depend on the processing

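Of 606 values of single genes recomputed under the alternatives, 596 kept their direction where called and their side of the threshold, 10 lost a call, all of them H2-D1, and 0 reversed. Of the 9 genes tested, 8 to 9 were called in 2i against primed when 1 library was left out. At 50 µM against 2i, the 1 called gene became 0 with DESeq2, and 0 to 1 when 1 library was left out. The replicate block, where replicate numbers pair the six-day libraries, left the calls of the 9 genes as they were. Over all genes, the 124 called at 25 µM against 2i became 268 with no low-count filter, 627 with the replicate block and 29 to 101 when 1 library was left out. The 1994 called at 50 µM against 2i became 3240 with the replicate block and 1217 to 1668 when 1 library was left out. The 153 called at 50 against 25 µM became 329 with no filter, 542 with the replicate block and 38 to 203 when 1 library was left out. The cause of these shifts was not tested. In the comparisons with primed, the replicate numbers did not pair every library (lowest r = 0.012). A dose effect on Psmb8, Tap2 and Nlrc5 was not detectable at these depths.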

Other observations

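Genes of the MHC class II pathway, whose promoters share the RFX complex with those of class I genes, were counted separately. Of 6 tested, 2 were higher, 0 lower and 4 not called in 2i, a called share of 33.3% beside 40.4% of all genes tested. H2-Eb1, a class II beta chain that lies on chromosome 17 near Tap2, had 21.5, 27.5 and 24 CPM in 2i, 16.8, 18.7 and 21.2 CPM at 25 µM and 8.99, 15.1 and 7.93 CPM at 50 µM, against 3.89, 5.38 and 5.14 CPM in primed cells. All 2i libraries were above the other groups and all primed libraries were below them. It changed by 2.34 ± 0.22 in 2i against primed (edgeR adjusted p = 1.56e-08) and by −1.18 ± 0.19 at 50 µM against 2i (adjusted p = 0.000291). Ciita, the class II transactivator and a relative of Nlrc5, had 16, 12 and 15 counts in 2i. It had 7, 9 and 13 counts at 25 µM and 4, 0 and 6 at 50 µM, against 2, 0 and 4 in primed libraries. Ciita changed by 2.72 ± 0.67 in 2i against primed. With such counts it may have passed the filter through 2i libraries alone, so this rise is a description and no p is given. The count of 2 higher genes includes Ciita, whose call may thus be built into its selection.

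Ligands that natural killer cells read beside class I were tested for 4 of 8 genes. Of these, 1 was higher, 2 lower and 1 not called in 2i (1 lower without primed replicate 1 or 2i replicate 3). The called share was 75%, beside 40.4% of all genes tested. Raet1e, a ligand of the activating receptor NKG2D, changed by 1.18 ± 0.32 in 2i and by −1.40 ± 0.33 at 50 µM against 2i. Nectin2, a ligand of DNAM-1, changed by −0.69 ± 0.11 in 2i. Of 9 chromatin regulators known to silence class I genes in other cells, 3 were higher, 3 lower and 3 not called in 2i. The called share was 66.7%, beside 40.4% of all genes tested. Setdb1 changed by 0.66 ± 0.10, Mtf2 by 0.40 ± 0.09, Jarid2 by −0.58 ± 0.10 and Ehmt2 by −0.68 ± 0.12. Of 45 tested genes within 100 kb of the 10 genes, Nlrc5 included, 3 were higher, 11 lower and 31 not called, a called share of 31.1% beside 40.4% of all genes tested.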
